A study of Mus musculus with 6 samples.

Results

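The genes described here are the mouse developmental transcription factors of the Tbx, Gata, Irx, sine oculis homeobox (Six2 to Six6 here), Meis, Pbx, Pitx, Lhx and Dlx families. Within these families the genes were taken by name, as every gene whose symbol is a family name followed by digits only and that has a probe set assigned to it alone. There were 51 such genes among the 18193 genes on the arrays: 12 Tbx, 6 Gata, 6 Irx, 5 sine oculis homeobox, 3 Meis, 3 Pbx, 2 Pitx, 8 Lhx and 6 Dlx. Genes of these families without such a probe set were not analysed here. A gene with several probe sets is represented by the one with the highest mean log2(signal + 16) over the 6 arrays. The arrays measured RNA of mouse embryonic fibroblasts, connective tissue cells cultured from minced embryos, here from C57BL/6 embryos at 14 days of gestation with male and female material pooled. The wild-type group (WT) had 3 arrays, and the other 3 arrays carried the label abl/arg knockout (DKO), which is the loss of both Abl kinases, c-Abl (Abl1) and Arg (Abl2). No treatment is named for either group, and the sources used here do not give how the knockout was made, how often the cells were passaged or whether a group is a single line. The aim stated with the data is to learn the part that Abl kinases play in transcription.

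These families set up position and organ identity in the embryo, and fibroblasts keep part of that positional programme in culture. T-box factors (Tbx) bind DNA through the T-box domain and act in the limbs, heart and body wall. GATA factors bind the sequence they are named for through zinc fingers and act in blood, heart and endoderm. Irx, Meis and Pbx proteins belong to the TALE class of homeodomain factors, and Meis and Pbx proteins bind each other and HOX proteins on DNA. Sine oculis homeobox proteins work with Eya coactivators, Lhx factors pair with Ldb adaptors through their LIM domains, Pitx1 is a hindlimb factor, and Dlx factors pattern the jaws, limbs and forebrain.

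The promoters of 4 members that changed strongly are shown, because a feature the choice by name did not use can be read in them, the number of CpGs, the dinucleotide at which DNA is methylated. Irx2 and Tbx20 start in stretches rich in it, and Meis2 does not. Each line gives the 250 bases before the start in the RefSeq table of the mouse build GRCm38.p6, 5′ to 3′ on the strand of the gene, with every CpG in capitals.
Irx2, chr13:72628570-72628819, plus strand: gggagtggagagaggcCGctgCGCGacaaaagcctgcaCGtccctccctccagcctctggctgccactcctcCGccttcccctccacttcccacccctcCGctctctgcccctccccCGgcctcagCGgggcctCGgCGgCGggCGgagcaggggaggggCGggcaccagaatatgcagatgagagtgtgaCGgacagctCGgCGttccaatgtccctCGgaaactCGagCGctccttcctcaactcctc
Meis1, chr11:19018970-19019219, minus strand: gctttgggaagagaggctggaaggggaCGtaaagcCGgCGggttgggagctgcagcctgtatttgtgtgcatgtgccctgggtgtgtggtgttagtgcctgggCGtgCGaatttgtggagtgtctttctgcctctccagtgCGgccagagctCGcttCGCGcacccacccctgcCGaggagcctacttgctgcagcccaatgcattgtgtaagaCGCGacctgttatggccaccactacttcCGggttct
Meis2, chr2:116064620-116064869, minus strand: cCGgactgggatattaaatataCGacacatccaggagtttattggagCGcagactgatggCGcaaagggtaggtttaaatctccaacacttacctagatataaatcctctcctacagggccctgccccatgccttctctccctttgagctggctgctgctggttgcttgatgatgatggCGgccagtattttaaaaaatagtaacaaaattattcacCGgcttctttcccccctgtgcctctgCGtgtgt
Tbx20, chr9:24774304-24774553, minus strand: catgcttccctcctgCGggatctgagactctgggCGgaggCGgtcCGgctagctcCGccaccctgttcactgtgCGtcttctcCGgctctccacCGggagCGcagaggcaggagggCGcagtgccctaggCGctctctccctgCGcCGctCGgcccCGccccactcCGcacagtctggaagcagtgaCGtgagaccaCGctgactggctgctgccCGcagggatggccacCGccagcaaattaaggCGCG
The Irx2 window held 19 CpGs, the Tbx20 window 22, the Meis1 window 13 and the Meis2 window 7. RefSeq windows were available here for 35 of the 51 members, 44 windows in all, and their median was 14.5 CpGs against 6 over all 32851 windows. Members that rose, fell or were not called were all found among the CpG-rich windows, for example Lhx2 (rose; 24 and 25), Pbx2 (fell; 27) and Lhx1 (not called; 26). None of the 6 motifs searched on both strands was present in the 4 windows shown. These were CTGTCA for Meis proteins, TGATNNAT for Pbx with HOX, AGATAA for GATA factors, TAATTA for homeodomains such as those of Dlx and Lhx, AGGTGT for T-box proteins and ACANNTGT for Irx proteins; the letters of these motifs do not contain one another. Of all windows, 15.9%, 7.68%, 9.99%, 4.84%, 11.8% and 6.31% held them, in that order, against 13.6%, 4.55%, 9.09%, 4.55%, 2.27% and 0% of the 44 member windows. A match is only a match of letters, and its absence concerns these windows alone.

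The array medians ran from 13.4 to 14.7, and signals below about that level carry little information; a signal of 50 is used here to separate dim genes from brighter ones. Arrays of one group correlated at 0.9985 or more across genes, and arrays of different groups at 0.905 or less; genes are not independent replicates. The targeted genes were not clearly lower in the arrays labelled knockout: Abl1 had signals of 185 ± 4.46 and 169.8 ± 8.22 and Abl2 of 256 ± 9.30 and 254 ± 11.9 (WT and DKO, SD, n = 3 each; adjusted p = 0.0929 and 0.874 in limma), so every direction is that of the arrays carrying that label. Probes that lie outside a deletion would not show it, and the position of the probes was not analysed here. The labels do not say whether arrays of a group stem from different cultures, so p-values measure the spread between arrays, which may be technical. In bulk RNA, fewer cells of a type and less RNA per cell cannot be told apart. Differences are DKO minus WT on log2(signal + 16), which understates the change of dim genes, and genes were called at an adjusted p under 0.05 in limma over all genes.

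Across the 51 members, 12 rose and 18 fell, together 58.8%, while 59.7% of all genes were called (24.2% rose and 35.5% fell). Calls of 2-fold or more (1 on the log2 scale) numbered 6 that rose and 3 that fell, or 17.6%, against 15.8% of all genes (7% rose and 8.77% fell). The WT and DKO arrays did not overlap for 32 members, 62.7%, against 64.7% of all genes. The median difference was -0.02 over the members and -0.03 over all genes. By count, then, the families changed about as often as any genes on these arrays, and the differences lie with single members. Many members were dim: 16 of 51 reached a mean signal of 50 in either group, 31.4%, against 51.9% of all genes. Of these 16, 14 were called, and among all genes at that signal 85.7% were called and 28.7% differed 2-fold (12.6% rose and 16.1% fell). Nothing is read from the count of 14, because a gene can reach that signal through the group in which it is high.

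The share of members that rose moved with the array scaling. When poly-A spike controls set the scale 29 members rose and 8 fell, and when hybridization spike controls did so 9 rose and 29 fell; the median of all genes moved by 0.164 and -0.0916 on the log2 scale. Over all genes 10994 rose and 2749 fell with the poly-A scale and 3036 rose and 10722 fell with the hybridization scale, so rises made up 78.4% of the calls among members and 80% among all genes with the former, and 23.7% and 22.1% with the latter. Of the 30 members called, 25 kept their direction under all 4 other scalings tried and 17 kept both the direction and the call, 9 that rose and 8 that fell. Irx1, Irx2, Gata6, Meis1 and Tbx20 stayed past 2-fold under all 4.

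**Figure D1:**
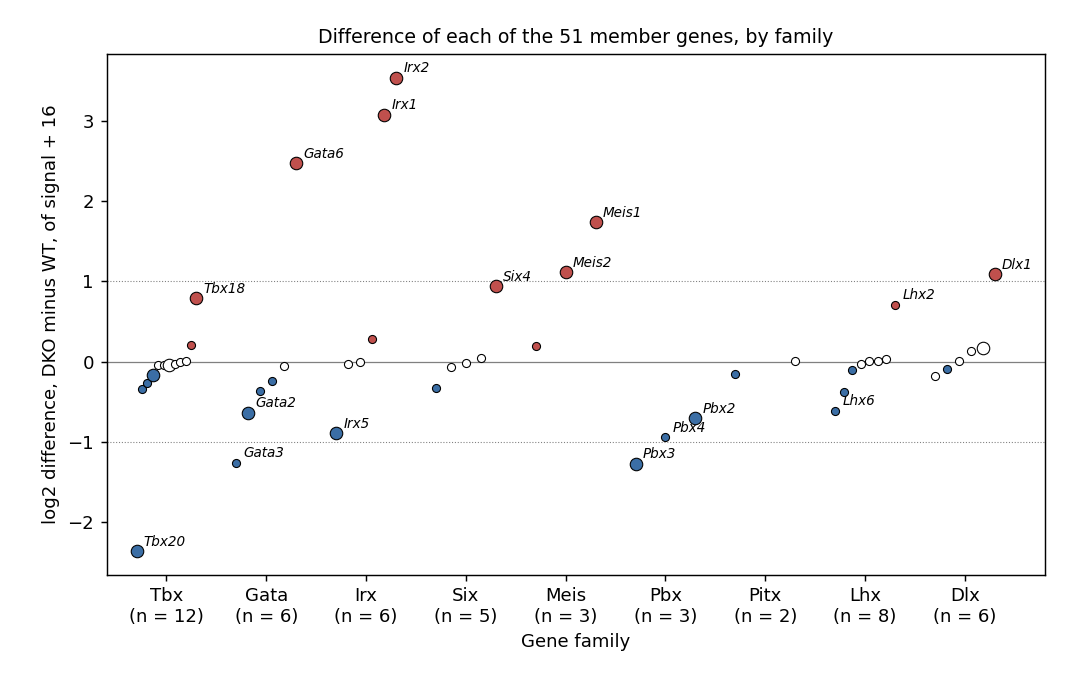
Log2 difference (DKO minus WT, on signal + 16) of each of the 51 genes, grouped by family on the horizontal axis. Filled points passed an adjusted p under 0.05 (red higher, blue lower), large points have a mean signal of at least 50 in either group, and dotted lines mark 2-fold; Irx2 (3.54), Irx1 (3.08) and Gata6 (2.47) are highest and Tbx20 (-2.36) is lowest.

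The Iroquois genes, which subdivide the neural plate, heart and limb fields, held the highest differences of the 51. Irx2 had signals of 9.55, 6.22 and 4.88 on the WT arrays and 269, 228 and 252 on the DKO arrays. That is a change from near the floor to a clear signal, with no overlap, and a log2 difference of 3.54 ± 0.09 (SE; adjusted p = 6.75e-12). Irx1 had 11.9, 7.23 and 8.99 on the WT arrays and 175, 232 and 189.9 on the DKO arrays. Its groups did not overlap either, with a log2 difference of 3.08 ± 0.11 (SE; adjusted p = 6.97e-11). Irx5 went the other way and was well expressed in both groups, at 313, 309 and 304 on the WT arrays and 165, 160.3 and 154 on the DKO arrays. All 3 DKO values lay below all WT values (-0.89 ± 0.05, SE; adjusted p = 4.79e-09), although the difference was -0.38 under poly-A spike scaling. Irx3 was below a signal of 50 in both groups, at 36.7 ± 3.86 and 48.3 ± 5.30 (SD, n = 3 each), a difference of 0.29 (adjusted p = 0.0136) that was 0.10 under hybridization spike scaling (adjusted p = 0.328). The Irx3 call was also lost without WT array 1 (0.24, adjusted p = 0.0616) and without DKO array 3 (0.23, adjusted p = 0.0578). Irx4 and Irx6 were near the floor in both groups (4.31 to 4.66) and were not called.

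Irx1, Irx2 and Irx4 follow each other on chromosome 13 with no other protein-coding gene between them in the RefSeq table, and Irx3, Irx5 and Irx6 do so on chromosome 8. In the chromosome 13 cluster Irx1 and Irx2 rose and the neighbouring Irx4 had signals of 4.63 ± 0.170 and 4.31 ± 0.836. In the chromosome 8 cluster Irx5 fell and Irx3 did not follow it.

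In the Gata family, Gata6 rose, 4 members fell and Gata5 was not called. Gata6, a factor of endoderm, heart and vascular smooth muscle, had signals of 8.96, 8.02 and 8.79 on the WT arrays and 119.5, 119.6 and 122 on the DKO arrays. It went from near the floor to a narrow band above 100 (2.47 ± 0.07, SE; adjusted p = 1.28e-11). A further Gata6 probe set went from 9.52 ± 1.15 to 68.2 ± 3.04, and the remaining one was near the floor in both groups (3.72 and 4.06), so that the probe sets averaged to 1.41. Gata2, a factor of blood progenitors and endothelium, had 131, 139 and 151 on the WT arrays and 79.8, 91.4 and 82.5 on the DKO arrays. Its groups did not overlap (-0.64 ± 0.07, SE; adjusted p = 5.42e-06), but the call was lost under poly-A spike scaling (-0.16, adjusted p = 0.160). Gata3, known from T cells, skin and the sympathetic system, was dim in both groups, with 38.3, 38.6 and 47.0 on the WT arrays and 8.204, 7.42 and 7.99 on the DKO arrays. It fell toward the floor (-1.26 ± 0.07, SE; adjusted p = 5.73e-09). Gata4, which shares roles with Gata6 in heart and endoderm, and the erythroid factor Gata1 were below 15 in both groups. Both were lower in the DKO arrays (-0.37 and -0.24), and the Gata1 call was lost under at least 1 scaling. The other Gata4 probe set was at 8.92 and 7.70 and was not called (-0.07, adjusted p over probe sets 0.152).

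The FOG cofactors, zinc-finger proteins that bind GATA factors, fell too. Zfpm2 (FOG-2) had 679, 681 and 642 on the WT arrays and 275, 251 and 236 on the DKO arrays, a log2 difference of -1.34 (adjusted p = 3.34e-10). It was -0.82 under poly-A spike scaling. Zfpm1 (FOG-1) went from 63.0 ± 9.87 to 22.3 ± 2.28 (-1.04, adjusted p = 8.50e-07).

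Among the 12 T-box genes, 2 rose, 4 fell and 6 were not called, and Tbx20 stood apart. Tbx20, a factor of the developing heart, had signals of 102, 79.8 and 85.0 on the WT arrays and 4.21, 3.89 and 5.18 on the DKO arrays. The DKO values lay at the floor (-2.36 ± 0.09, SE; adjusted p = 1.13e-10). A second bright Tbx20 probe set gave 97.6 ± 12.1 and 2.79 ± 0.255 (SD, n = 3 each), and the dim one gave 13.6 and 5.49. Of 8 heart muscle markers, Tnnt2, cardiac troponin T, moved with it, from 77.1 ± 10.2 to 7.78 ± 0.189, and the other 7 had means from 2.54 to 8.24 in both groups. The summed signal of the 8 was 103.9 to 121.9 on the WT arrays and 38.8 to 41.4 on the DKO arrays. The part of heart muscle cells in the Tbx20 result was not tested.

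Tbx18, a factor of somites, epicardium and ureter mesenchyme, rose. It had 132, 141 and 121 on the WT arrays and 231, 253 and 231 on the DKO arrays. The groups did not overlap (0.79 ± 0.06, SE; adjusted p = 2.49e-07), and the difference was 1.28 under poly-A spike scaling. Its other probe set went from 42.1 to 99.7. Tbx15, which acts in skeletal and dermal mesenchyme, was at 69.9 ± 1.03 in WT and 60.4 ± 1.04 in DKO (SD, n = 3 each), a small difference of -0.17 (adjusted p = 0.0498). That call was lost without any 1 of the 6 arrays (adjusted p from 0.0589 to 0.118), with the replicate number as a block (adjusted p = 0.0643) and under quantile normalization (adjusted p = 0.0586), and the direction turned under poly-A spike scaling (0.26). Tbx3, a limb and mammary factor, was at 52.2 ± 0.843 and 50.3 ± 1.81, with a difference of -0.04 (95% interval -0.20 to 0.11) that came to 0.37 with poly-A spikes as the scale and to -0.24 with hybridization spikes. Tbx2, Tbx4, Tbx5, Tbx6, Tbx19, Tbx21, Tbx22 and Tbx1 had means from 2.53 to 18.7. The limb-type factors Tbx4 (hindlimb) and Tbx5 (forelimb) were near 8 to 9 in both groups. Of these dim genes Tbx2 (-0.34) and Tbx19 (-0.26) fell and Tbx6 (0.21) rose, but none of the 3 calls held under all 4 other scalings.

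**Figure D2:**
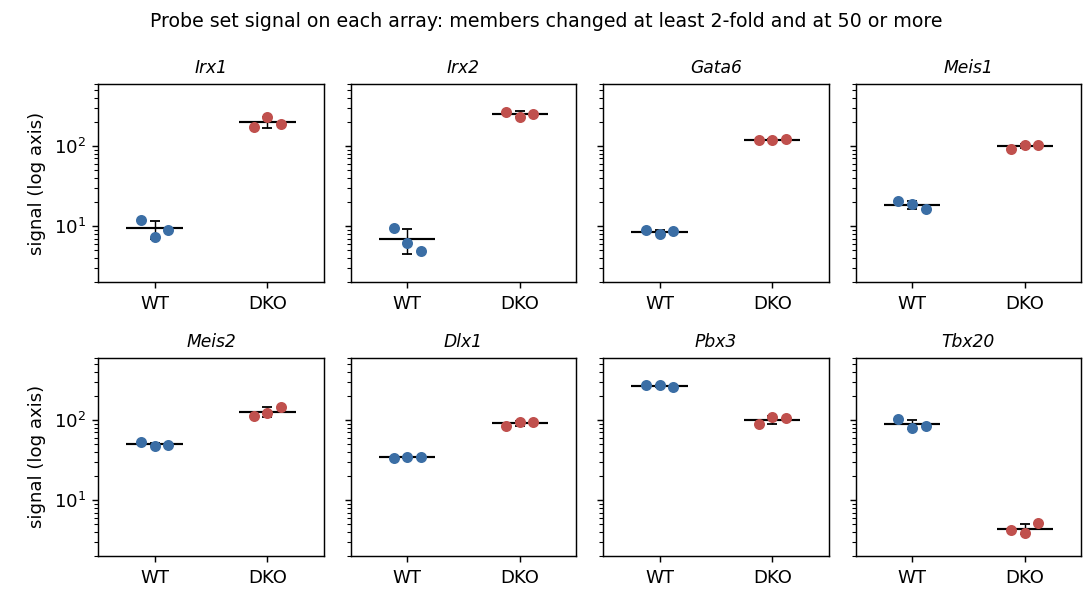
Probe set signal (vertical log axis) on each of the 3 WT and 3 DKO arrays for the 8 members changed at least 2-fold and at 50 or more in their higher group; points are arrays, lines are means and bars are SD (n = 3). Irx1, Irx2 and Gata6 lie below 12 on every WT array and above 100 on every DKO array, and Tbx20 lies at 79.8 or more on every WT array and below 6 on every DKO array.

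The Meis genes rose and the Pbx genes fell. Meis1, a TALE partner of HOX and Pbx proteins in limb and blood, had signals of 20.4, 18.7 and 16.5 on the WT arrays and 92.9, 102 and 103 on the DKO arrays. The DKO arrays were all far above the WT arrays (1.74 ± 0.08, SE; adjusted p = 9.30e-10). Its other probe sets went from 4.76 to 23.6 and from 7.27 to 8.12, and the difference was 0.91 with probe sets averaged. Meis2 had 52.6, 47.0 and 49.0 on the WT arrays and 112, 124 and 145 on the DKO arrays. The groups did not overlap (1.12 ± 0.09, SE; adjusted p = 1.98e-07). The size rests on the choice of probe set and, for dim ones, on the added 16. It was 0.57 with the probe sets averaged. It was 0.27 (adjusted p = 5.01e-06) without those whose names end in x, s or a, which can match more than a single transcript. The 0.27 is that of a single dim probe set, at 3.94 and 8.10, where the added 16 shrinks the difference. Another probe set went from 14.4 to 40.1 (0.88), and the remaining one was dim and level (9.68 and 9.76). Meis3 was dim, at 19.95 ± 2.23 and 25.2 ± 2.77 (0.19, adjusted p = 0.0357), a call lost under quantile, median and hybridization spike scaling. It was also lost without WT array 2 (0.14, adjusted p = 0.163) and without DKO array 1 (0.14, adjusted p = 0.120).

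Pbx3 had 272, 271 and 254 on the WT arrays and 88.2, 109.9 and 106 on the DKO arrays. Each DKO value was below each WT value (-1.27 ± 0.07, SE; adjusted p = 7.82e-09), and the difference was -0.78 under poly-A spike scaling. Its other probe set went from 119 ± 4.94 to 57.7 ± 4.70. Pbx2 had 255, 250.1 and 285 on the WT arrays and 145, 166 and 157 on the DKO arrays. It was lower by this probe set (-0.70 ± 0.06, SE; adjusted p = 7.35e-07), but both others gave -0.12 (adjusted p over probe sets 0.217 and 0.181), and the call was lost under poly-A spike scaling (-0.20, adjusted p = 0.0604). Pbx4 was dim and fell from 39.0 ± 3.35 to 12.8 ± 3.84 (-0.94 ± 0.09, SE; adjusted p = 1.46e-06), or by 0.57 with probe sets averaged. The related TALE factor Pknox2 fell from 53.8 ± 15.7 to 8.03 ± 2.14 (-1.52, adjusted p = 5.37e-07; -0.77 with probe sets averaged). Pbxip1, which encodes a protein that binds Pbx factors and blocks their action on DNA, had 105, 113 and 121 on the WT arrays and 467, 485 and 473 on the DKO arrays. It rose by 1.93 on the log2 scale (adjusted p = 1.29e-11).

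**Figure D3:**
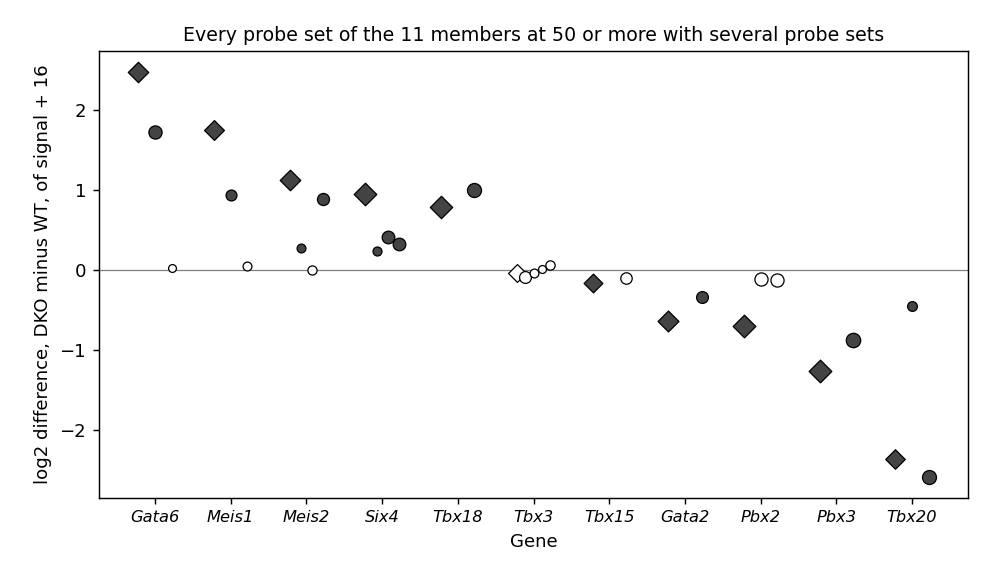
Log2 difference (DKO minus WT, on signal + 16) of every probe set of the 11 members with several probe sets and a mean signal of 50 or more in either group; diamonds are the probe set that represents the gene, circles the others, larger symbols are brighter and filled ones passed an adjusted p under 0.05 over all probe sets. The filled symbols of each gene lie on the same side of 0, while open ones appear for Gata6, Meis1, Meis2, Pbx2, Tbx15 and Tbx3.

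Several probe sets were present for 26 members, with 40 probe sets besides those that represent them. Of these 40, 18 passed an adjusted p under 0.05 over all probe sets. The gene itself had been called for 14 of the 18, and all 14 went in the same direction as the gene. The other 4 belong to dim genes that were not called themselves. Those of Dlx4 (0.33, gene 0.14) and Lhx9 (0.05, gene 0.01) had the sign of the gene, and those of Six3 (0.21, gene -0.07) and Lhx1 (-0.10, gene 0.01) the opposite sign.

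Six4 was the only gene of its family at 50 or more. It is a factor of muscle and kidney precursors that acts with Eya proteins, and it had 125, 118 and 134 on the WT arrays and 241, 276 and 251 on the DKO arrays. The DKO values were all above the WT values (0.94 ± 0.06, SE; adjusted p = 4.07e-08). Its 3 other probe sets rose less (0.23, 0.41 and 0.32), so that the difference was 0.48 for the average of the probe sets and 0.32 when those named x, s or a were left out. Six5 was dim and fell by 0.32, a direction that turned under poly-A spike scaling (0.01), and Six2, Six3 and Six6 were not called. Of the Eya coactivators, Eya4 went from 6.84 ± 1.33 to 58.6 ± 7.18 (1.70, adjusted p = 1.70e-09; 0.70 with probe sets averaged), Eya3 fell from 136 ± 8.25 to 80.6 ± 9.26 (-0.66), the dim Eya2 fell from 12.8 ± 1.40 to 4.86 ± 1.07 (-0.46, adjusted p = 1.81e-06), and Eya1 stayed uncalled at 128 ± 4.08 and 134 ± 18.5. Gdnf, a textbook target of Eya and sine oculis homeobox proteins in the kidney, had 27.8, 32.1 and 28.4 on the WT arrays and 335, 324 and 339 on the DKO arrays. It rose by 2.94 (adjusted p = 1.23e-12).

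Dlx1, a factor of forebrain interneurons and jaw mesenchyme, had 33.8, 34.6 and 34.2 on the WT arrays and 84.4, 94.6 and 93.6 on the DKO arrays. Its groups were well separated (1.09 ± 0.07, SE; adjusted p = 4.35e-08), and the difference was 0.89 under hybridization spike scaling. Dlx2, the next protein-coding gene on the same chromosome, had 59.8, 61.3 and 48.7 on the WT arrays and 58.5, 69.7 and 68.4 on the DKO arrays. These overlapped (0.17, 95% interval -0.03 to 0.37, adjusted p = 0.137), and the difference was 0.59 with poly-A spikes as the scale and -0.041 with hybridization spikes. The other 4 Dlx genes had means from 3.24 to 33.95, and of these Dlx5 alone was called, near the floor, at 4.44 and 3.24, with its direction turned under poly-A spike scaling.

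All 8 Lhx genes and both Pitx genes were dim, below 30 in both groups. Lhx2, a factor of forebrain, eye and limb, was at the floor on the WT arrays (3.06, 3.15 and 2.77) and at 17.1, 13.6 and 14.8 on the DKO arrays. It rose by 0.71 (adjusted p = 8.99e-09) without reaching a signal that would be called bright. Lhx6, a factor of forebrain interneurons and jaw, fell from 29.8 ± 2.65 to 14.1 ± 2.11 (-0.61, adjusted p = 8.10e-06). The difference was -0.32 with probe sets averaged and -0.30 under poly-A spike scaling, and its other probe set was near the floor and not called (-0.04). Lhx4 fell by 0.37, and Lhx5 by 0.10, with a turn of direction under poly-A spike scaling and a call lost without WT array 3 (adjusted p = 0.0531) or DKO array 1 (adjusted p = 0.0527). The hindlimb factor Pitx1 was at 14.97 ± 1.44 and 15.3 ± 3.07 and was not called, and Pitx3 was at 15.2 and 11.98, called but turned under poly-A spike scaling.

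**Figure D4:**
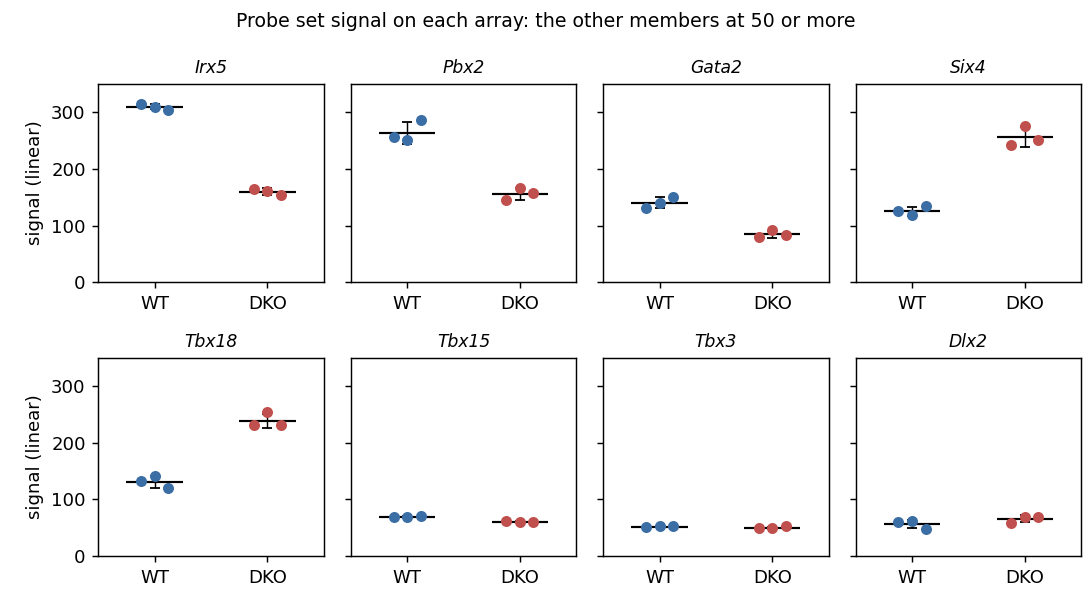
Probe set signal (linear vertical axis from 0) on each of the 3 WT and 3 DKO arrays for the other 8 members with a mean of at least 50 in either group; points are arrays, lines are means and bars are SD (n = 3). Irx5, Pbx2 and Gata2 lie lower and Six4 and Tbx18 higher on all DKO arrays, while the points of Tbx3 and Dlx2 overlap.

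In 11 places, genes of the same family are neighbours with at most 1 protein-coding gene between them, and in 1 of them, Irx1 with Irx2, both rose. In no pair did both fall. Dlx1 rose without Dlx2, Six4 without Six6, and Tbx2 fell without Tbx4.

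Of 22 partners and cofactors of these families, 7 rose and 8 fell, 3 of each by at least 2-fold, with a median of -0.02. That is 68.2% called and 27.3% past 2-fold, against 59.7% and 15.8% of all genes. The list is also brighter, with 68.2% at 50 or more in either group against 51.9% of all genes. Among all genes at that signal, 85.7% were called and 28.7% passed 2-fold. Tgif1, a TALE repressor, went from 202 ± 9.19 to 472 ± 35.4 (1.16, adjusted p = 2.15e-09), and its paralogue Tgif2 from 253 ± 8.29 to 140.5 ± 3.60 (-0.78, adjusted p = 2.62e-08). The LIM adaptor gene Ldb1 rose (0.54), as did Ssbp2 and Ssbp3, whose products stabilise it (0.88 and 0.72). Of 11 related factors whose names fall outside the 9 families, 2 rose and 3 fell, or 45.5%, a smaller share than of all genes. Lmx1b, a LIM-homeodomain factor of the dorsal limb, went from 8.66 ± 1.77 to 103 ± 25.5 (2.26, adjusted p = 1.09e-08; 1.15 with probe sets averaged), and Mga, a T-box protein that binds Max, from 116 ± 4.88 to 45.3 ± 6.48 (-1.11, adjusted p = 1.63e-07; -0.27 with probe sets averaged). The T-box genes Eomes and Tbr1 were below 7 in both groups.

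**Figure D5:**
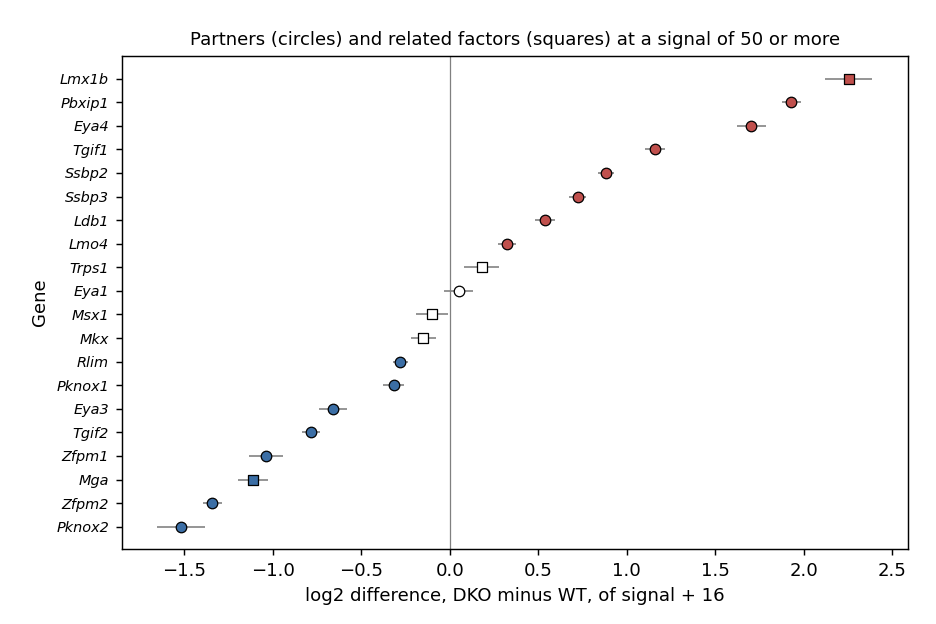
Log2 difference (DKO minus WT, on signal + 16) with SE bars from the fit for the partners (circles) and related factors (squares) with a mean of at least 50 in either group; filled symbols passed an adjusted p under 0.05. Values run from -1.52 for Pknox2 to 2.26 for Lmx1b, with both FOG genes, Zfpm1 and Zfpm2, below -1.

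Other genes of limb and body wall patterning were read beside the families. Of 31 measured, 11 rose and 5 fell, with a median of 0.04. Together that is 51.6%, against 59.7% of all genes. Past 2-fold were 8 that rose and 1 that fell, or 29%, against 15.8% of all genes. The list was chosen with earlier results of these data known. Fgf10, the limb bud growth factor that Tbx4 and Tbx5 switch on in the embryo, had 9.77, 8.02 and 7.26 on the WT arrays and 174, 148 and 189.6 on the DKO arrays. It rose by 2.93 (adjusted p = 3.49e-11). Tbx4 and Tbx5 had means of 8.05 to 9.18 and were not called, and their part in the Fgf10 rise was not tested. Alx1, a factor of craniofacial mesenchyme, fell from 87.9 ± 7.86 to 5.18 ± 0.879 (-2.29, or -1.40 with probe sets averaged), and Tshz3 rose from 4.47 ± 1.10 to 66.2 ± 5.76 (2.01). Prrx1, the limb mesenchyme factor, went up from 136 to 2888. Of 11 textbook targets of the families, 4 rose and 2 fell, or 54.5%, near the 59.7% of all genes. Past 2-fold were 3, or 27.3%, against 15.8% of all genes. The cyclin gene Ccnd1 rose by 3.50 and Cdkn2a, which Tbx2 and Tbx3 are known to repress, fell by 2.09. The dim Tbx2 fell (-0.34) and Tbx3 was not called (-0.04). Their part in the Cdkn2a difference was not tested. The heart genes Nppa and Gja5 were below 6 in both groups.

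Of 10 fibroblast markers, 7 rose and 2 fell, and 8 were at 50 or more in either group. Over the marker lists read here, the share called ran from 0% (endothelial) to 90% (fibroblast), against 59.7% of all genes. Vim, Fn1, Col1a1, Pdgfrb and Dcn were above 170 in both groups. Pdgfra was near the floor in WT alone, at 9.99 against 1789 in DKO. Col1a2 and Col3a1 were so in DKO alone, at 9.71 and 14.9 against 2284 and 1934 in WT. Thy1 (8.22 in WT and 7.59 in DKO) and Lum (4.81 and 8.04) were near the floor in both groups. Of 8 neural markers 2 rose and 4 fell: Sox2 went from 3.67 ± 1.03 to 236 ± 51.8 and Nes from 40.6 to 229, and Tubb3 fell from 52.9 to 8.14 and Map2 from 101 to 30.3. The neural sum was 260.4 to 269.7 on the WT arrays and 518.3 to 598 on the DKO arrays. The higher DKO sum came from Sox2 and Nes, while Tubb3, Map2, Elavl3 and Elavl4 fell, so the list did not move as a whole. The part of neural cells in the rises of Dlx1, Lhx2, Irx1 and Irx2, which these cells also express, was not tested. Of 8 skeletal muscle markers none rose and 2 fell, among them Des from 78.1 ± 8.13 to 40.7 ± 5.66, and Myod1, Myf5 and Myog were below 6 in both groups. Of 8 endothelial markers none was called, of 8 epithelial markers 4 fell, and of 7 macrophage and blood markers 1 rose and 1 fell. All of these were below 50 in both groups, and among them Cdh1, Pecam1 and Ptprc were at or below 3.6. Of 8 extraembryonic endoderm and trophoblast markers, where Gata6 is also expressed, Krt7 rose from 16.9 to 52.3 and the other 7 had means from 3.22 to 28.0 and were not called; the 8 summed to 104.8 to 113.4 on the WT arrays and 129.6 to 136.6 on the DKO arrays.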

How the data were processed

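The authors deposited a linear intensity for every probe set on each array, for 3 wild-type and 3 knockout-labelled samples grouped by title. Per the submitters' processing notes, the software was MAS5, with no version or scaling stated in the sources used here. Of 45101 probe sets, 34945 carried 1 gene symbol and 34741 of these matched the RefSeq table (GRCm38.p6). Signals became log2(signal + 16), with the probe set of highest mean log2 value per gene, giving 18193 genes. The test was limma's (version 3.58.1, R 4.3.3; lmFit, then eBayes with trend; 2-sided; Benjamini-Hochberg over all genes). Other probe sets were tested over all non-control probe sets. The fit was tested on simulated data.

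The families and lists were chosen with earlier results of these data known; within the families the rule used names alone. Members were named with all 6 values where past an adjusted p of 0.05, 2-fold and a signal of 50; others at 50 or more by group, and dim ones mainly by range; in other lists, 4 genes or fewer by size, and further partners, relatives and markers chosen after their values were seen. Alternatives were offsets 1 and 64, 4 scalings, leaving out dim genes, other probe set choices, a robust eBayes fit and one with no trend, a block on the replicate number and leaving out each array. The number of arrays limits the precision. Figures were drawn with matplotlib 3.10.9.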

Additional observations from a re-analysis of the deposited data

How the results depend on the processing

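The 20 members followed were the 16 at 50 or more in either group and Gata3, Lhx2, Lhx6 and Pbx4, the dim genes called with the largest differences. This choice leaves out the smaller calls of dim genes. Of the 20, 15 kept their direction and their side of the threshold under all 18 alternatives that gave a value, and Dlx2, Gata2, Pbx2, Tbx15 and Tbx3 did not. Of all 30 called members, 17 kept direction and call under the 4 other scalings. The direction of Dlx2 turned under hybridization spike scaling (-0.041), and that of Tbx15 and Tbx3 under poly-A spike scaling (0.26 and 0.37); the cause was not tested. The number of members called was 30, and 14 when genes under a signal of 50 in both groups were left out, which leaves 16 of the 51 to test; of all genes 8236 of the 9438 left were then called. Without each array in turn it was 28 to 29, and the number past 2-fold was 9 to 10, against 9. With an offset of 64, which shrinks dim genes' differences by construction, 4 members and 1817 of all genes passed 2-fold, against 9 and 2869. Irx2 was at 5.03 with an offset of 1 and 2.14 with 64, and Tbx20 at -4.05 and -1.16. With the replicate block 29 members were called; Tbx15 was the only one of the 20 whose call it ended. Same-numbered WT and DKO arrays deviated from their group means with correlations of 0.0384, 0.114 and 0.165; each array correlated best with its own number, a hint from the data and not the design, and the numbers were not taken to pair the samples. Signals near the floor have no reliable order.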
